A study of Drosophila melanogaster with 24 samples.

Results

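The dpr, DIP, beat and side genes of Drosophila melanogaster encode cell-surface and secreted proteins with immunoglobulin domains that bind one another in selective pairs. Their RNA levels were read in developing genital discs of both sexes. The genes were taken by symbol from the platform annotation: dpr followed by a number, symbols starting with DIP-, beat- or side-, and side itself. This gave 51 of the 11982 genes measured, of which 20 were dpr, 10 DIP, 13 beat and 8 side genes. A RefSeq gene table of Release 6 of the fly genome lists 54 genes of these families, of which beat-Ib, DIP-lambda and dpr21 were not measured by a probe set of their own. A gene with several probe sets was read from its brightest one, by the mean of the 24 arrays.

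Total RNA of dissected genital discs was hybridised to Affymetrix arrays, 1 array per sample, with 4 biological replicates for each sex and stage. The 6 groups were females and males at L3 (wandering third-instar larvae, sexed by the size of the gonad), at P6 (prepupae taken when the air bubble of the puparium was largest, about 6 h after puparium formation) and at P20 (pupae taken when GFP first showed in the eye disc, about 20 h after it). Animals of all groups had the genotype esgGAL4.B, UAS-GFP.nls/CyO, in which the escargot driver puts nuclear GFP into the imaginal discs to guide dissection, and were reared at 25 C. The genital disc is the larval primordium of the internal and external genitalia of both sexes.

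Dpr proteins (named for the defective proboscis extension response of the first mutant) bind the DIPs (Dpr-interacting proteins), and Beaten path proteins bind the Sidestep proteins. In the fly nervous system both networks are known for guiding axons and for matching neurons with their synaptic partners, since each neuron type carries its own combination. Side is made by the tissues along which motor axons grow and is bound by Beat-Ia on those axons.

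Values are on the log2 scale of robust multi-array average (RMA) summaries, so a difference of 1 is a 2-fold change, and a dim probe set understates a change. All differences between the sexes are female minus male, and all differences between stages are later minus earlier. A change was counted when its Benjamini-Hochberg adjusted p over all 11982 genes was under 0.05, two-sided. Levels of different genes come from different probe sets and are not set against each other.

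Over the series, values ran from 2.04 to 14.51, array medians from 5.04 to 5.18, and correlations between replicates from 0.964 to 0.994. The median SD of a recognition gene within a group lay between 0.130 (P6 females) and 0.220 (L3 males), and 4 arrays a group set the precision. Of 13 measured genital disc markers, esg had group means from 9.66 to 11.04 and cad, which marks the anal primordium, from 10.11 to 11.27. At P6 against L3, 7 of the 13 fell and 1 rose in females (21% and 14.6% of all genes). In males 6 fell and 1 rose (18.5% and 16.3% of all genes). Among the falls was byn, another gene of the hindgut and anal primordium, at -3.43 in females and -3.26 in males. Of 21 measured testis and germline markers, none was higher in female discs and 1, 7 and 5 were lower at L3, P6 and P20. Of all genes, 0.618%, 3.72% and 1.65% were lower at these stages. The only call at L3 was eya, with group means from 5.67 to 8.09, which was also among the calls at P6 and P20. The mean of that list spanned 4.36 to 4.97 in L3 females and 4.46 to 5.76 in L3 males, 4.27 to 4.69 in P6 females and 5.09 to 6.25 in P6 males, and 4.38 to 4.46 in P20 females and 5.10 to 5.84 in P20 males. In whole discs, fewer cells of a type and less RNA per cell cannot be told apart.

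Most of the recognition genes differed by less than 1 log2 unit between groups, and a few moved by large amounts. The spread between the highest and lowest of the 6 group means had a median of 0.44 over the 51 genes and 0.65 over all genes. It reached 1 log2 unit in 9 recognition genes (17.6%, against 29.6% of all genes) and 2 log2 units in 5 (9.8%, against 9.96% of all genes). Those 9 were dpr10 (4.62), beat-IIa (4.25), dpr17 (4.21), dpr19 (3.14), beat-IIIc (2.94), dpr7 (1.99), DIP-alpha (1.55), beat-IIb (1.49) and dpr20 (1.09). Of the 51, 28 passed the threshold in at least 1 of the 9 comparisons of groups or in the test of sex by stage, and 23 passed in none (54.9% with a call, against 65.9% of all genes).

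**Figure D1:**
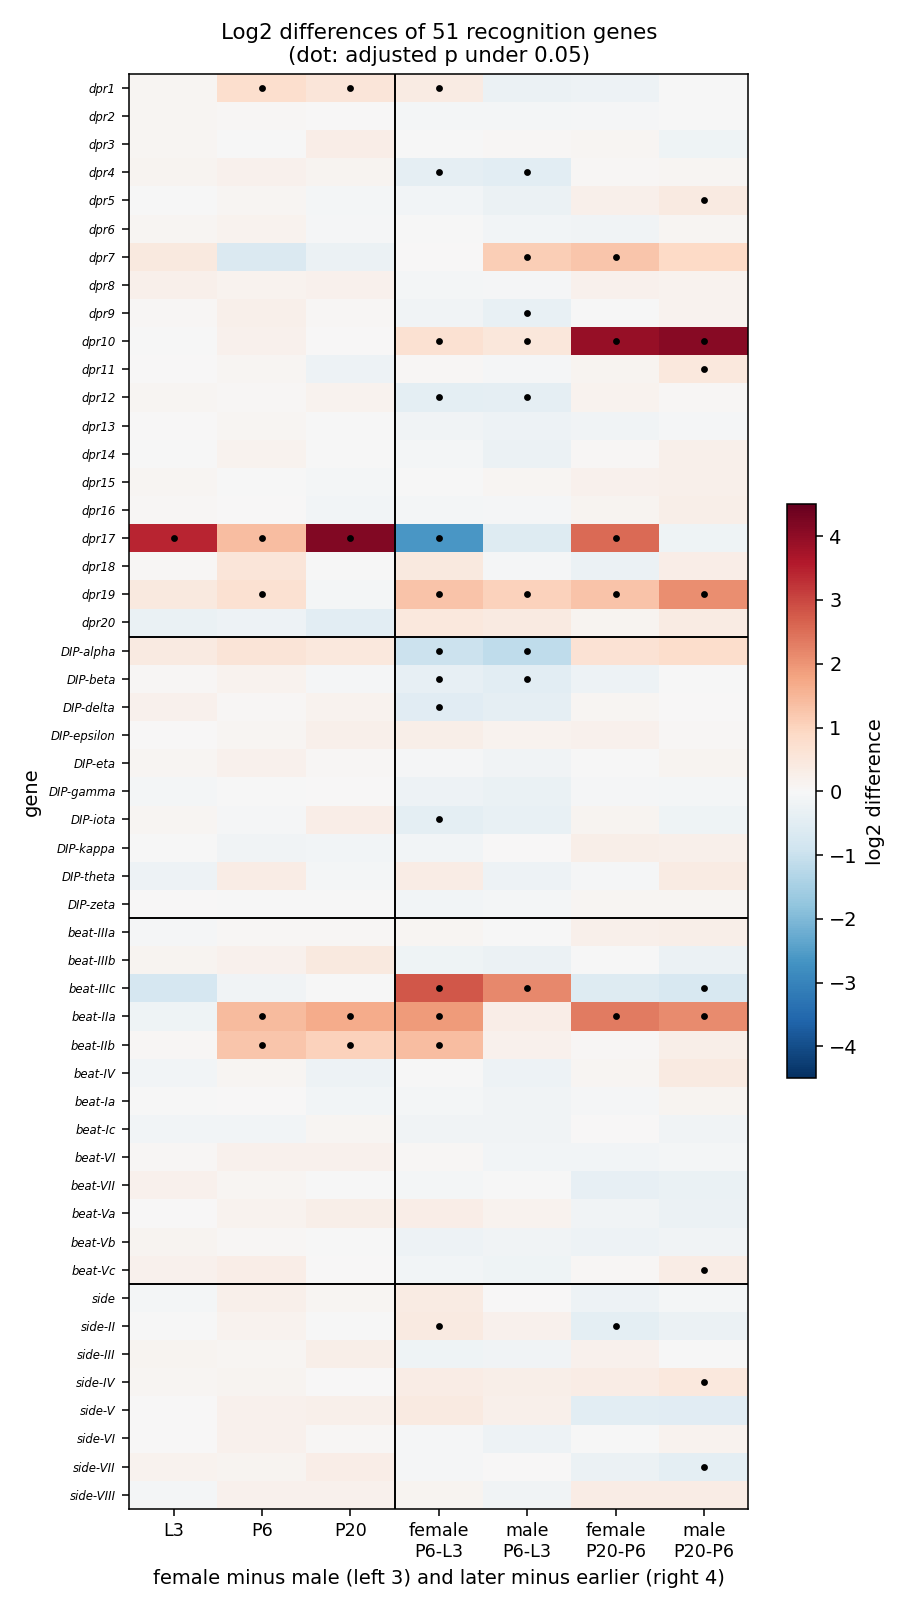
Log2 differences of all 51 genes, in rows by family, for the 3 sex comparisons (left) and the 4 comparisons of successive stages (right), with a dot where the adjusted p was under 0.05. Deep red and blue cells are confined to a few rows, among them dpr17, dpr10, dpr19, beat-IIIc and beat-IIa, while most rows stay pale.

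The comparison of female with male discs asks which recognition genes differ between the developing female and male genitalia. All the sex differences that passed were higher in female discs. At L3 only dpr17 passed, 1 of 51 against 0.985% of all genes (0.367% higher and 0.618% lower in females). At P6 dpr17, beat-IIa, beat-IIb, dpr1 and dpr19 passed (9.8%, against 4.83% of all genes, of which 1.11% were higher and 3.72% lower in females). At P20 dpr17, beat-IIa, beat-IIb and dpr1 passed (7.84%, against 2.35%, of which 0.701% were higher and 1.65% lower in females). No DIP and no side gene passed in any sex comparison.

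The dpr17 gene encodes a Dpr protein that binds DIP-gamma, and its level set the sexes apart at all 3 stages. At L3 its values were 10.11, 9.46, 10.02 and 9.42 in the 4 female arrays, against 6.46, 6.10, 6.87 and 5.88 in the male arrays. At P6 they were 6.80, 6.75, 7.32 and 7.70 in females and 5.14, 5.66, 5.58 and 6.58 in males. At P20 females had 9.69, 9.81, 9.77 and 9.52 and males 5.78, 5.70, 5.41 and 5.28. The sexes did not overlap at any stage, and came closest at P6. The female minus male difference was 3.43 ± 0.27 (SE) at L3, 10.7-fold (adjusted p = 2.4e-08), 1.40 ± 0.27 at P6, 2.64-fold (adjusted p = 0.00204), and 4.15 ± 0.27 at P20, 17.8-fold (adjusted p = 5.07e-10).

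The narrowing at P6 came with a dip in females. Female dpr17 fell by 2.61 at P6 relative to L3 (6.09-fold, adjusted p = 7.82e-08) and rose by 2.55 at P20 relative to P6 (5.87-fold, adjusted p = 1.2e-07), and the 4 arrays of each female stage lay clear of the next. By P20 the female level differed from the L3 level by -0.05, with a 95% confidence interval of -0.61 to 0.50. In males the difference was -0.58 at P6 against L3 (adjusted p = 0.0949) and -0.20 at P20 against P6 (adjusted p = 0.648), and over the whole span, at P20 against L3, the level fell by 0.78 (adjusted p = 0.0247), a call lost without L3 male replicate 3 or P20 male replicate 3 or 4 (adjusted p up to 0.104). The test of sex by stage passed for dpr17 (moderated F test, adjusted p = 0.00023). The sex difference fell by 2.02 at P6 relative to L3 (adjusted p = 0.00807) and grew by 2.75 at P20 relative to P6 (adjusted p = 0.000146).

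Both Beat proteins known to bind Side-IV, Beat-IIa and Beat-IIb, came from genes that overlapped between the sexes at L3 and rose in females at P6. At L3 beat-IIa read 3.14, 3.35, 3.55 and 3.20 in females and 3.32, 3.15, 3.86 and 3.64 in males. At P6 it read 5.40, 5.07, 4.96 and 5.45 in females and 4.72, 3.44, 3.30 and 3.68 in males. At P20 it read 7.71, 7.72, 7.32 and 7.49 in females and 6.13, 6.02, 5.52 and 5.91 in males. The sexes overlapped at L3 and were apart at P6 and P20, and in males the first P6 array stood above the other 3. The sex difference was -0.18 at L3 (adjusted p = 0.999), 1.44 ± 0.23 at P6 (2.71-fold, adjusted p = 0.000358) and 1.66 ± 0.23 at P20 (3.17-fold, adjusted p = 6.71e-05).

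In female discs beat-IIa rose at both steps, by 1.91 at P6 and by 2.34 at P20. The male step to P6 was 0.29 (adjusted p = 0.35) and the male step to P20 a rise of 2.11 (adjusted p = 2.84e-07). Over the whole span the rise was 4.25 in females, 19-fold, and 2.40 in males, 5.29-fold.

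The beat-IIb values followed the same order of groups at P6, with 5.67, 5.11, 5.13 and 5.73 in females and 4.36, 3.81, 3.86 and 4.57 in males. At P20 females had 5.60, 5.34, 5.32 and 5.59 and males 4.47, 4.51, 4.39 and 4.29. At L3 the arrays overlapped, with means of 4.04 ± 0.26 in females and 3.97 ± 0.07 in males (SD, n = 4 each). The sex difference was 1.26 ± 0.17 at P6 (2.39-fold, adjusted p = 4.12e-05) and 1.05 ± 0.17 at P20 (2.07-fold, adjusted p = 0.000433). The female level rose by 1.37 at P6 (adjusted p = 1.27e-06), while the male step was 0.18 (adjusted p = 0.438). At P20 relative to P6 beat-IIb gave 0.05 in females (adjusted p = 0.875) and 0.26 in males (adjusted p = 0.287), where beat-IIa rose in both sexes.

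The test of sex by stage passed for beat-IIa (adjusted p = 0.00286) and beat-IIb (adjusted p = 0.0118), which with dpr17 made 3 of 51 recognition genes (5.88%, against 1.65% of all genes). The sex difference grew at P6 relative to L3 by 1.62 for beat-IIa (adjusted p = 0.016) and by 1.19 for beat-IIb (adjusted p = 0.0153). With the fall for dpr17 that made 3 of 51 in the contrast of P6 with L3 (0.81% of all genes, 0.325% with a larger and 0.484% with a smaller value), and dpr17 alone passed in the contrast of P20 with P6 (1.15% of all genes, 0.492% with a larger and 0.659% with a smaller value). Both beat genes were dim at L3, with means of 3.31 in females and 3.49 in males for beat-IIa, and 4.04 and 3.97 for beat-IIb. A sex difference can be compressed at such levels, so the L3 values and the growth from L3 to P6 are limited by this. Both genes lie on arm 3R, with 4 protein-coding genes between them in the Release 6 table. Of these, CG31418 and CG31419 were measured, and their sex differences were 0.18 and 0.06 at P6 (adjusted p = 0.703 and 0.999) and 0.14 and 0.05 at P20 (adjusted p = 1 for both after rounding).

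Smaller sex differences were seen for dpr1, the founding member of the family, needed in the fly for the aversive response to salt, and for dpr19. At P6 dpr1 read 4.72, 4.72, 4.62 and 4.51 in females and 4.16, 3.96, 3.78 and 3.70 in males, a difference of 0.74 ± 0.13 (1.68-fold, adjusted p = 0.00118). At P20 it read 4.25, 4.46, 4.64 and 4.32 in females and 4.19, 3.83, 3.79 and 3.71 in males, a difference of 0.54 ± 0.13 (1.45-fold, adjusted p = 0.0294). The sexes were apart at both stages, by a narrow gap at P20. The dpr1 call at P20 was lost without any 1 of 5 P20 arrays, female replicate 2 or 3 or male replicate 2, 3 or 4 (adjusted p up to 0.135), and the other 2 probe sets of dpr1 gave 0.19 and 0.14 at P6 and 0.07 and 0.13 at P20, none past the threshold.

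At P6 dpr19 read 7.56, 7.12, 7.32 and 7.54 in females and 6.96, 6.35, 6.87 and 6.55 in males. The groups were apart, and the difference was 0.70 ± 0.18 (1.63-fold, adjusted p = 0.0231). It was lost without P6 female replicate 1 or 4 or P6 male replicate 2 or 4 (adjusted p up to 0.0994). The sex difference of dpr19 was 0.44 at L3 (adjusted p = 0.532) and -0.10 at P20 (adjusted p = 1), and the test of sex by stage did not pass (adjusted p = 0.356). With a replicate block per stage, dpr19 passed that test (adjusted p = 0.0317).

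**Figure D2:**
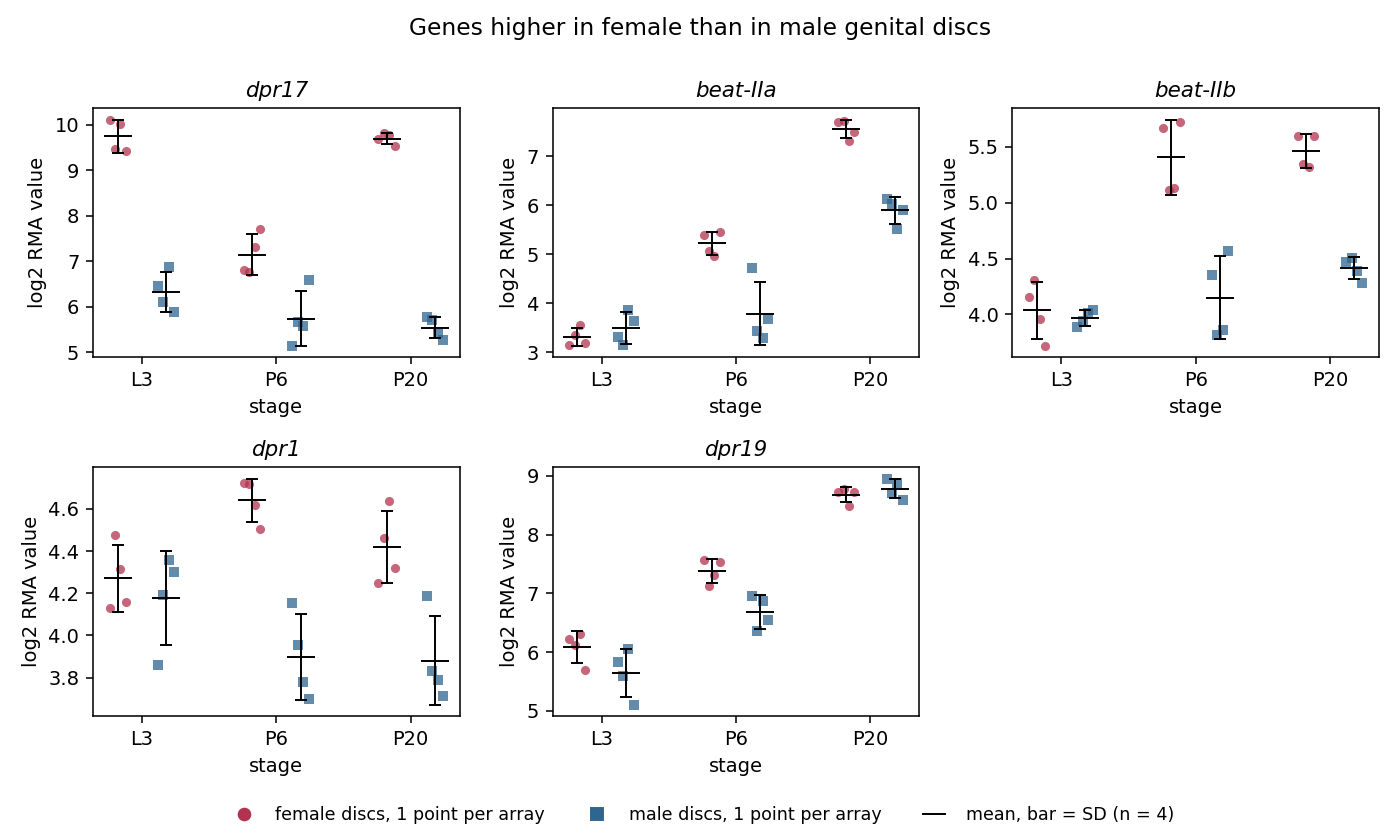
Log2 RMA values of the 5 genes with a sex difference past the threshold, by stage, with 1 point per array (red circles female, blue squares male) and bars for the mean and SD of 4 arrays. The dpr17 points of the sexes are far apart at L3 and P20 and closest at P6, those of beat-IIa and beat-IIb part from P6 on, and those of dpr19 meet again at P20.

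Over all 51 genes at P6, the female minus male difference was above 0 in 41 of 51 genes (80.4%, against 47.8% of all genes), and its median was 0.14, against -0.01 over all genes. At L3 it was above 0 in 35 of 51 (68.6%, against 53.6% of all genes), with a median of 0.05, against 0.01. At P20 it was above 0 in 30 of 51 (58.8%, against 49.7% of all genes), with a median of 0.02, against -0.00. With arrays centred on their medians the P6 count was 46 of 51 and the median 0.23, against 0.08 over all genes. These are descriptions of these arrays, with no test.

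The testis and germline markers, 7 of 21 lower in females at P6 and 5 of 21 at P20, ran the other way. Without the male array highest in those markers at each stage, an alternative chosen after the data were seen, the sex comparisons gave 1, 5 and 3 recognition genes at L3, P6 and P20, with dpr1 lost at P20 (adjusted p = 0.122) and 3 again in the test of sex by stage. Of 18 measured neuron markers, only futsch, a microtubule-binding protein of axons, passed between the sexes, higher by 1.08 in P6 females. The mean of that list spanned 4.67 to 4.85 in P6 females and 4.52 to 4.89 in P6 males. Of 9 glia markers wrapper was higher by 1.84 in L3 females (adjusted p = 0.00329) and also passed the test of sex by stage (adjusted p = 0.0229), and gcm and gcm2 were lower in P6 females, at -5.49 and -1.45. The glia list mean spanned 7.08 to 7.66 in P6 females and 8.01 to 8.26 in P6 males. Only gcm and gcm2 of that list passed at P6. Their P6 means were 2.94 and 4.46 in females, and 8.43 and 5.91 in males. Of the rest, repo, nrv2 and Indy had the higher P6 mean in females, and moody, loco, Gs2 and wrapper in males. Of 13 sensory precursor markers, ato was higher in females at L3, by 1.31, and ato and l(1)sc at P6, by 3.04 and 3.06. Lower in females were 2 at L3, 1 at P6 and 5 at P20, with Poxn among them at each stage. The sensory list mean spanned 5.22 to 5.74 in L3 females and 5.67 to 5.89 in L3 males, 6.56 to 6.83 in P6 females and 6.34 to 6.82 in P6 males, and 6.16 to 6.52 in P20 females and 7.002 to 7.35 in P20 males. The part of these markers in the sex differences of the recognition genes was not tested.

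The binding partners were read beside the genes with a sex difference. DIP-gamma, the receptor shared by dpr11, dpr15, dpr16 and dpr17, averaged 4.66 ± 0.17 in L3 females and 4.74 ± 0.31 in L3 males (SD, n = 4 each, as in what follows), 4.42 ± 0.07 and 4.44 ± 0.24 in P6 females and males, and 4.37 ± 0.15 and 4.36 ± 0.10 in P20 females and males. Its sex difference was -0.08 at L3 (95% confidence interval -0.37 to 0.21), -0.03 at P6 (-0.31 to 0.26) and 0.01 at P20 (-0.28 to 0.30). The DIP-gamma probe set is dim, so these intervals are not set against the dpr17 differences. None of the other 3 partners of DIP-gamma passed between the sexes. Among them dpr11 passed between stages, rising by 0.46 in males at P20 relative to P6 (adjusted p = 0.00782), and dpr15 and dpr16 did not. The male DIP-gamma level fell by 0.38 at P20 relative to L3 (adjusted p = 0.0335). Without the male array highest in testis markers at each stage, these male dpr11 and DIP-gamma calls were lost (adjusted p = 0.119 and 0.0587).

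On 3R dpr15 and dpr17 are separated by a single protein-coding gene, CG4702, in the Release 6 table. That gene did not pass between the sexes (differences of 0.33 at L3, -0.11 at P6 and 0.54 at P20) and was higher at P6 than at L3 by 7.80 in females and 8.24 in males. Over those stages dpr17 fell in females, and dpr15 stayed dim in every array, at 2.43 to 3.51.

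Side-IV, the receptor of Beat-IIa and Beat-IIb, averaged 6.06 ± 0.20 in P6 females and 5.92 ± 0.10 in P6 males, and 6.38 ± 0.26 in P20 females and 6.38 ± 0.13 in P20 males. Its sex difference was 0.14 at P6 (adjusted p = 0.924) and 0.00 at P20 (adjusted p = 1, 95% confidence interval -0.33 to 0.34). The gene rose over the whole span in both sexes, by 0.66 in females (adjusted p = 0.00268) and by 0.73 in males (adjusted p = 0.00126). With the mean of its 2 probe sets the male difference was 0.29, which did not pass (adjusted p = 0.0832).

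**Figure D3:**
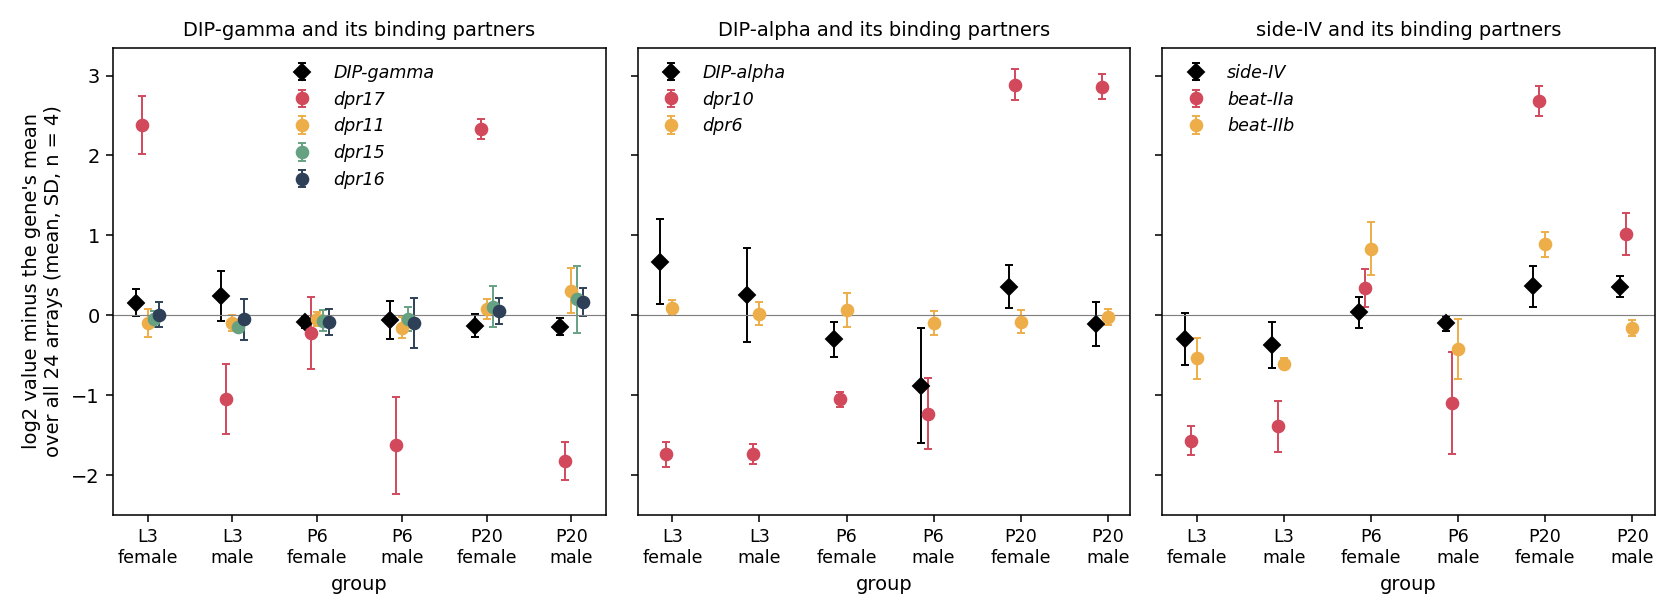
Group means of 3 receptor genes (black diamonds) and the genes of their known binding partners (coloured circles), each as the log2 difference from that gene's mean over all 24 arrays, with bars for the SD of 4 arrays. In each panel 1 or 2 partner genes swing widely (dpr17, dpr10, beat-IIa, beat-IIb). Of the receptor genes, the group means of DIP-alpha span 1.55, against 1.49 for beat-IIb, and those of side-IV span 0.74. DIP-gamma, dpr11, dpr15, dpr16 and dpr6 stay near 0, where a dim probe set understates a change.

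The comparison of P6 with L3 discs asks which recognition genes move as the disc enters metamorphosis. In females 14 of 51 passed (27.5%, against 35.6% of all genes), 7 higher and 7 lower, where 14.6% and 21% of all genes were higher and lower. In males 9 passed (17.6%, against 34.8%), 4 higher and 5 lower, where 16.3% and 18.5% of all genes were. Without L3 female replicate 2 the female count was 8, and without L3 male replicate 4 the male count was 5. With arrays centred on their medians the male split was 2 higher and 8 lower. The median difference was -0.05 in females (-0.09 over all genes) and -0.11 in males (-0.04 over all genes).

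The largest rise at this step was that of beat-IIIc, a Beaten path family gene. Female arrays had 6.92, 6.27, 5.78 and 6.47 at L3, 9.07, 8.95, 9.15 and 9.41 at P6, and 8.39, 8.74, 8.45 and 8.67 at P20. Male arrays had 7.90, 6.96, 6.76 and 6.89 at L3, 9.31, 8.66, 9.61 and 9.61 at P6, and 8.62, 8.51, 8.32 and 8.81 at P20. L3 and P6 were apart in both sexes, although the first male L3 array stood above the other L3 arrays. The rise was 2.79 ± 0.25 in females (6.9-fold, adjusted p = 6.9e-09) and 2.17 ± 0.25 in males (4.5-fold, adjusted p = 4.17e-07), and the other probe set of the gene gave 3.43 and 2.42. At L3 the female minus male difference was -0.77 ± 0.25, which did not pass (adjusted p = 0.23, and 0.00915 with a replicate block per stage).

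At P20 every female beat-IIIc array lay below every female P6 array, while the male P20 and P6 arrays overlapped. The male step down was -0.74 (adjusted p = 0.0303) and the female one -0.58 (adjusted p = 0.0886). The male call was lost without any 1 of 6 P6 or P20 male arrays (P6 replicates 1, 3 and 4, P20 replicates 1, 2 and 3, adjusted p up to 0.101).

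Also on the rising side at P6 were dpr19 in both sexes, by 1.30 in females (adjusted p = 6.48e-06) and 1.04 in males (adjusted p = 0.000121), and dpr10, by 0.68 in females (adjusted p = 0.00192) and 0.50 in males (adjusted p = 0.0183). The male dpr10 call was lost without L3 male replicate 4 or P6 male replicate 2 (adjusted p up to 0.0902). In females dpr1 rose by 0.37 (adjusted p = 0.0345), a call lost without L3 female replicate 1, 3 or 4 or P6 female replicate 1, 2 or 3 (adjusted p up to 0.0929). With the mean of all its probe sets this dpr1 difference was 0.07 (adjusted p = 0.64), and with centred arrays it was 0.29 (adjusted p = 0.256).

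Beside dpr17 in females, the falls at P6 held 4 of the 10 DIP genes in females (21% of all genes fell) and 2 of the 10 in males (18.5% of all genes fell). DIP-alpha, which in the fly pairs motor neurons and visual neurons with cells carrying Dpr6 and Dpr10, had 8.00, 8.78, 7.98 and 9.02 at L3 in females, 7.43, 7.37, 7.30 and 7.80 at P6 and 8.05, 8.28, 8.41 and 7.80 at P20. In males it had 7.61, 8.59, 8.48 and 7.44 at L3, 6.80, 5.91, 7.41 and 7.44 at P6 and 7.71, 7.50, 8.04 and 7.43 at P20. L3 and P6 were apart in females and overlapped slightly in males. The fall was -0.97 ± 0.31 in females (adjusted p = 0.0189) and -1.14 ± 0.31 in males (adjusted p = 0.00738). The female call was lost without L3 female replicate 2 or 4 (adjusted p up to 0.0796). The differences of 0.66 in females and 0.77 in males at P20 relative to P6 did not pass (adjusted p = 0.137 and 0.0755).

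DIP-beta fell by 0.37 in females (adjusted p = 0.0476) and by 0.47 in males (adjusted p = 0.0134), with 4.65, 4.77, 4.66 and 4.89 in P6 females, 4.81, 5.33, 5.30 and 5.02 in L3 females, 4.63, 4.60, 4.55 and 4.59 in P6 males and 4.67, 5.23, 5.46 and 4.90 in L3 males. These stages overlapped in females and were apart in males. That female call was lost without any 1 of 16 arrays (adjusted p up to 0.149), and the male one without L3 male replicate 3 (adjusted p = 0.0706). DIP-delta, the receptor of Dpr12 in the mushroom body, had 4.08, 4.17, 4.24 and 4.34 in P6 females, against 4.21, 5.03, 4.65 and 5.04 in L3 females, with 1 L3 array inside the P6 range. It fell by 0.53 (adjusted p = 0.0151), a call lost without L3 female replicate 2 or 4 (adjusted p up to 0.0672), and the male change of -0.41 did not pass (adjusted p = 0.0573). DIP-iota fell in females by 0.46 (adjusted p = 0.0157).

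Among dpr genes dpr4 and dpr12 fell at P6 in both sexes. The dpr4 values were 6.04, 6.11, 6.17 and 6.15 in P6 females, 6.31, 6.84, 6.51 and 6.40 in L3 females, 6.10, 5.96, 5.89 and 5.80 in P6 males and 6.14, 6.48, 6.40 and 6.63 in L3 males. These stages were apart in both sexes, and the falls were 0.40 in females (adjusted p = 0.0124, and 0.0637 without L3 female replicate 2) and 0.47 in males (adjusted p = 0.0042). For dpr12, the partner of DIP-delta, the fall was 0.43 in females (adjusted p = 0.0162) and 0.39 in males (adjusted p = 0.029). In males dpr9 fell by 0.33 (adjusted p = 0.0191). Without the male array highest in testis markers at each stage, the male calls of DIP-beta, dpr12 and dpr9 were lost (adjusted p = 0.0877, 0.108 and 0.0653). The other probe sets of dpr4, dpr12, DIP-beta and DIP-delta gave no call at this step.

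A single side gene passed at P6, side-II, with 5.21, 5.20, 4.87 and 5.14 in L3 females, 5.44, 5.68, 5.38 and 5.46 in P6 females and 5.29, 4.99, 4.93 and 4.96 in P20 females. It rose by 0.39 at P6 (adjusted p = 0.00688) and fell by 0.45 at P20 (adjusted p = 0.00283). Each step left the arrays of its stages apart. None of its 5 other probe sets passed, and the P6 change turned to -0.01 with the mean of all 6 (adjusted p = 0.97). With the mean of all probe sets of a gene, side-III passed at P6 against L3 instead. It gave -0.26 in females (adjusted p = 0.0181) and -0.26 in males (adjusted p = 0.023).

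Markers of other cells moved at the same step, where 14.6% of all genes rose and 21% fell in females, and 16.3% and 18.5% in males. Of 11 measured hemocyte markers 8 fell in females and 9 in males, and the mean of that list spanned 6.52 to 7.05 in P6 females, 8.51 to 9.69 in L3 females, 6.21 to 6.39 in P6 males and 8.23 to 9.52 in L3 males. Of 18 neuron markers only futsch rose, in both sexes, and Rim and cac fell in males. Of 44 other recognition and guidance genes measured, 11 rose and 5 fell in females, and 8 rose and 7 fell in males. Of 13 sensory precursor markers 8 rose in females and 7 in males and none fell, and the list mean spanned 6.56 to 6.83 in P6 females, 5.22 to 5.74 in L3 females, 6.34 to 6.82 in P6 males and 5.67 to 5.89 in L3 males. Of 9 glia markers 3 rose and 3 fell in females, and 4 rose and 2 fell in males. The part of these cells in the changes of the recognition genes at P6 was not tested.

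The comparison of P20 with P6 discs covers the pupal step. In females 6 of 51 passed (11.8%, against 26.3% of all genes), 5 higher and 1 lower, where 14.2% and 12.1% of all genes were higher and lower. In males 9 passed (17.6%, against 25.7%), 7 higher and 2 lower, where 13.1% and 12.6% were. With centred arrays the splits were 5 and 0 in females and 8 and 1 in males. Without the male array highest in testis markers at each stage, 4 male calls remained (dpr10, dpr19, beat-IIa and beat-Vc). The median difference was 0.05 in females (0.04 over all genes) and 0.10 in males (0.01 over all genes).

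The dpr10 gene, a partner of DIP-alpha that in the fly leg marks muscles for their motor neurons, had the largest difference between stages among the 51 genes. In females its arrays gave 3.05, 3.24, 3.43 and 3.25 at L3, 4.06, 3.86, 3.91 and 3.88 at P6 and 7.99, 8.06, 7.65 and 7.75 at P20. In males they gave 3.28, 3.16, 3.41 and 3.14 at L3, 3.68, 4.31, 3.22 and 3.78 at P6 and 7.85, 8.05, 7.77 and 7.69 at P20. Every P20 array lay far above every earlier one. The rise at P20 relative to P6 was 3.94 ± 0.16 in females (15.3-fold, adjusted p = 1.08e-14) and 4.09 ± 0.16 in males (17-fold, adjusted p = 6.08e-15). The sexes overlapped at P20, where the female minus male difference was 0.02 (95% confidence interval -0.31 to 0.36).

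The other partner of DIP-alpha, dpr6, lies on 3L as dpr10 does, with 5 protein-coding genes between them. Read from the brightest of its 3 probe sets, dpr6 stayed between 2.94 and 3.52 in all 24 arrays and passed in no comparison. With the mean of all 3, its female difference at P20 against L3 was -0.30, which passed (adjusted p = 0.0222). The 4 genes between the pair that were measured (CG14160, CG32053, CG32054 and Srg2) passed in no comparison of the sexes or of successive stages either. The probe sets of dpr10 and dpr6 are both of a kind that can match more than 1 transcript. So are those of DIP-beta, DIP-zeta and beat-IIIa.

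The dpr19 level rose at both steps in both sexes. In females it read 8.72, 8.77, 8.49 and 8.72 at P20, against 6.23, 6.12, 6.32 and 5.69 at L3. In males it read 8.95, 8.70, 8.88 and 8.59 at P20, against 5.84, 5.59, 6.05 and 5.10 at L3. With the P6 values given above, successive stages were apart in both sexes. The rise at P20 relative to P6 was 1.29 in females (adjusted p = 7.99e-06) and 2.10 in males (adjusted p = 5.99e-09), and over the whole span 2.59 in females, 6.01-fold, and 3.14 in males, 8.79-fold.

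Replicates of dpr7 were less even. In females it read 3.30, 3.72, 5.22 and 3.34 at L3, 4.04, 3.63, 3.56 and 4.43 at P6 and 5.77, 4.60, 5.31 and 5.02 at P20. In males it read 3.51, 3.46, 3.30 and 3.57 at L3, 4.43, 4.43, 3.69 and 5.69 at P6 and 6.11, 4.66, 5.76 and 5.26 at P20. In L3 females the third array stood above the others. Over the whole span dpr7 rose by 1.28 in females (adjusted p = 0.016) and by 1.99 in males (adjusted p = 0.00062), the female call being lost without L3 female replicate 1 or 4 or P20 female replicate 1 (adjusted p up to 0.0604). By step it rose in females at P20, by 1.26 (adjusted p = 0.0246), and in males at P6, by 1.10 (adjusted p = 0.0402). The female step was lost without P6 female replicate 2 or 3 or P20 female replicate 1 or 3, and the male one without any 1 of 7 L3 or P6 male arrays (adjusted p up to 0.0916 and 0.164). The test of sex by stage did not pass (adjusted p = 1).

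In males dpr5 (0.40), dpr11 (0.46), side-IV (0.46) and beat-Vc (0.33) rose at P20 by small amounts, with adjusted p from 0.00782 to 0.0496. With the mean of all probe sets side-IV gave 0.23 at this step, which did not pass (adjusted p = 0.209). The side-VII gene fell in males by 0.43 (adjusted p = 0.0126), with 4.59, 4.53, 4.44 and 4.77 in the P20 arrays, against 5.02, 4.79, 4.98 and 5.28 in the P6 arrays. These stages were apart by a small gap, and the call was lost without P6 male replicate 4 (adjusted p = 0.0551).

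**Figure D4:**
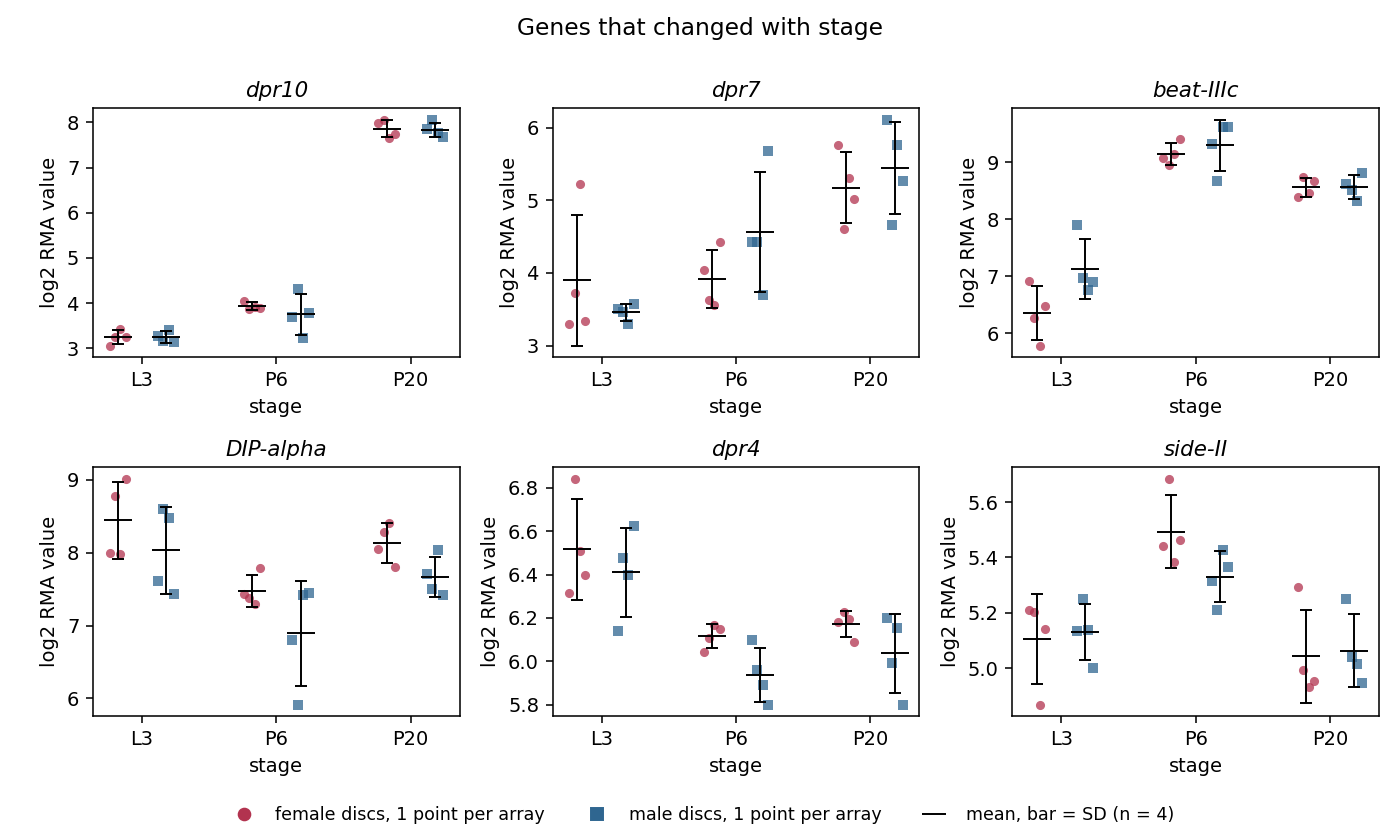
Log2 RMA values of 6 genes that changed between stages, with 1 point per array (red circles female, blue squares male) and bars for the mean and SD of 4 arrays. The dpr10 points jump at P20 in both sexes, beat-IIIc jumps at P6, DIP-alpha and dpr4 drop at P6, and dpr7 has 1 L3 female array at 5.22.

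Other recognition and guidance genes were read at the same step. Of 44 measured, 19 rose and 1 fell in females, where 14.2% and 12.1% of all genes did. In males 17 rose and 2 fell, where 13.1% and 12.6% of all genes did. The median difference of that list was 0.47 in females (0.04 over all genes) and 0.39 in males (0.01 over all genes). Among them sns, an adhesion protein of fusing myoblasts and nephrocytes, rose by 2.04 in females and 2.77 in males, and hbs, its close relative, by 1.76 and 1.41. Between the sexes that list held no call at L3 or P20 and 3 at P6, where Ama was higher by 0.46 in females, and kek2 and Con were lower, at -1.25 and -1.23.

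Markers of neurons and glia were read at the same step. Of 18 neuron markers 7 rose in females and 6 in males and none fell, with elav, the pan-neuronal RNA-binding protein, higher by 1.29 and 1.38. The neuron list mean spanned 5.16 to 5.48 in P20 females and 4.67 to 4.85 in P6 females, and 5.14 to 5.31 in P20 males and 4.52 to 4.89 in P6 males. Of 9 glia markers 4 rose and 2 fell in females and 3 rose and 3 fell in males. Among the rises was repo, the glial transcription factor, by 3.62 and 3.89. Among the falls were Indy in females (-1.07), and gcm (-2.90) and gcm2 (-1.33) in males, while gcm rose in females (2.61). Only 4 of 12 listed myoblast and muscle genes were measured, so that list says little about muscle. At this step none of the 4 passed in males, and only htl passed in females, at -0.84. The part of these cells in the rises of dpr10, dpr19, dpr7 and beat-IIa was not tested.

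Between the ends of the series, at P20 against L3, 15 recognition genes passed in females (29.4%, against 39.9% of all genes), 10 higher and 5 lower (17.7% and 22.2% of all genes). In males 15 passed as well (29.4%, against 38.1%), 8 higher and 7 lower (17.8% and 20.3%). The female count was 9 without L3 female replicate 2, and the female split with centred arrays was 10 and 2. Beside the genes already named, DIP-epsilon (0.45), beat-IIIa (0.34) and side-VIII (0.47) rose and dpr13 (-0.31) and beat-VII (-0.47) fell in females, and DIP-iota (-0.53) and beat-IIIb (-0.54) fell in males. Without the male array highest in testis markers at each stage, beat-IIIb was at -0.29 (adjusted p = 0.324). With the mean of all probe sets beat-IIIa was at 0.12 and side-VIII at 0.08, neither past the threshold.

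The 23 genes that passed nowhere were 9 dpr, 4 DIP, 6 beat and 4 side genes. Their group means spanned 0.13 to 1.09 log2 units, with a median of 0.33. The widest was dpr20, named here after its values were seen, whose L3 arrays were 6.37, 6.82, 8.51 and 8.75 in females and 6.48, 8.00, 8.24 and 8.94 in males, a spread within each sex larger than any difference between its groups. Side and its partner beat-Ia were both in this set, as were side-VI and its partners beat-Va and beat-Vb, while the other partner, beat-Vc, passed once. The set holds for the brightest probe set of each gene. With the mean of all probe sets of a gene, side-III and dpr6 passed as given above, and so did dpr8. In females dpr8 gave 0.54 at P20 against P6 (adjusted p = 0.0168) and 0.64 at P20 against L3 (adjusted p = 0.00353). Of the 51 genes, 13 had a mean under 4 over all arrays, where a change can be compressed, and no detection calls were used here to tell dim from absent.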

How the data were processed

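RNA of 24 genital disc samples was measured on Affymetrix arrays. The authors deposited 1 log2 value per probe set and array, summarised with RMA per the submitters' processing notes, and these values were used unchanged. The sources used here do not give a version of RMA. Of 18952 probe sets, 13647 had 1 gene in the platform annotation, and 402 had several and were left out, among them 2 that share DIP-epsilon or beat-Vb with another gene. Each of 11982 genes was read from its probe set of highest mean. The 51 recognition genes had 93 probe sets, 23 genes had several, and all 51 matched the RefSeq table by gene ID.

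Groups were compared with limma 3.58.1 in R 4.3.3, with lmFit and eBayes on all 24 arrays, 1 mean per group and 18 residual degrees of freedom. All adjusted p-values are limma's, Benjamini-Hochberg adjusted over 11982 genes. Sex by stage was tested with a moderated F statistic (2 numerator degrees of freedom). The fit was first tested on simulated data.

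Per-array values are given for genes past the threshold in a sex comparison or the test of sex by stage, and for the 3 largest changes in each direction between successive stages in either sex. Known binding partners were read whatever their values. The genes, lists and tests were chosen with earlier results of these data known, so nothing here is independent of those. The labels give no batch. Deviations of female and male arrays from their group means were correlated. Same-numbered pairs gave 0.113 to 0.421 at P20, 0.0724 to 0.679 at L3 and 0.0298 to 0.278 at P6. Unlike-numbered pairs gave -0.236 to 0.117 at P20, -0.380 to 0.241 at L3 and -0.260 to 0.197 at P6. Any pairing rests on these values alone. A replicate block per stage kept the same 4 recognition genes between the sexes at P20 and the same 5 at P6, and added beat-IIIc at L3. Over all genes the calls went from 118 to 242 at L3, from 579 to 789 at P6 and from 282 to 415 at P20. A planned comparison of protein and promoter sequences was not run, and no sequences were used here.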

Additional observations from a re-analysis of the deposited data

Results flagged for a closer look

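For 3 recognition genes the sex difference itself changed with stage, by a moderated F test in limma with adjustment over all genes. For dpr17 the adjusted p was 0.00023, with female minus male differences of 3.43, 1.40 and 4.15 at L3, P6 and P20. For beat-IIa it was 0.00286, with differences of -0.18, 1.44 and 1.66. For beat-IIb it was 0.0118, with differences of 0.07, 1.26 and 1.05. Both beat genes were dim at L3, where a sex difference can be compressed. In 84 groups of 4 arrays, over the 14 genes with values given per array, 0 had a highest or lowest array past the 95% critical value of Dixon's test. The arrays described as standing above the others of their group, for beat-IIa, beat-IIIc and dpr7, did not reach it.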

How the results depend on the processing

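The sex calls of beat-IIa and beat-IIb, the L3 and P20 calls of dpr17 and the 3 calls of sex by stage held under every alternative in which they could be fitted. With the arrays of the compared groups alone, 3 genes passed between the sexes at P6, where dpr17 (adjusted p = 0.0504) and dpr19 (0.0509) were lost, 3 passed in males at P6 against L3 and 9 in females at P20 against L3. With the mean of all probe sets, 9 passed in females at P6 against L3, and the side-II difference there was -0.0056. The replicate block per stage gave 2 genes between the sexes at L3, the second being beat-IIIc (-0.77, adjusted p = 0.00915), and 4 for sex by stage, with dpr19 (adjusted p = 0.0317) added. The replicate block over all arrays lost no call of a gene with values per array. Without the male array highest in testis markers at each stage, 4 genes passed in males at P20 against P6. Leaving out each array in turn gave 8 to 15 genes in females and 5 to 12 in males at P6 against L3, 9 to 16 in females and 12 to 18 in males at P20 against L3, 5 to 7 in females and 6 to 11 in males at P20 against P6, and 1, 4 to 6 and 3 to 4 between the sexes at L3, P6 and P20. Median centring moved the median difference over all genes by -0.135 in males at P6 against L3 and by 0.123 in males at P20 against P6, by under 0.1 elsewhere, and ended 12 calls of genes with values per array, dpr1 at P20 among them (adjusted p = 0.155). The cause of these changes was not tested. Signal over background is unknown, and dim genes are limited most.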
